A study of Mus musculus with 4 samples.

Results

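The genes described here carried exactly 1 N6-methyladenosine (m6A) site in the hearts of wild-type mice and exactly 1 in the hearts of Abro1 knockout mice. They were chosen by counting the rows of each gene symbol in the 2 deposited site lists and keeping the symbols with 1 row in each. This gave 2260 of the 6660 genes with a site in either list (33.9%, 95% interval 32.8 to 35.1) and 2260 of the 4955 genes with a site in both (45.6%, 44.2 to 47.0). Their sites made up 20.9% of the 10814 wild-type sites and 21.8% of the 10388 knockout sites. The number of sites per gene chose these genes and is therefore a description, not a result.

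Both genotypes, labelled wild type and ABRO1 Knockout, were on a C57BL/6 background, and the tissue was heart. Abro1, now named Abraxas2, encodes a scaffold protein of a deubiquitinase complex. There were 4 libraries, 1 input and 1 m6A immunoprecipitate (IP) per genotype, and each list was called from 1 such pair. The deleted part of the gene, the age of the mice and the number of animals behind each library are not given in the labels. With no replicates the genotypes could not be tested against each other, and each statement compares the 2 lists. Intervals are exact Clopper-Pearson 95% intervals, which hold for counting error alone and take each site as independent of the next. Read counts were not part of the lists, so sequencing depth is unknown.

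m6A is a methyl mark on adenosines inside RNA. It is deposited by a writer complex around Mettl3 and Mettl14, can be removed by erasers such as Fto, and is bound by readers of the YTH family, which influence how long an mRNA lasts and how well it is translated. In MeRIP-seq an m6A antibody pulls down fragments of RNA, and a site is a stretch where the pull-down exceeds the input. A site is therefore a region, often much wider than a single adenosine. In many mRNAs such regions lie near the stop codon, in the 3′ untranslated region or in long internal exons, and some lie at the 5′ end, where the related cap-adjacent mark m6Am is also recognised by m6A antibodies.

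In 6 of the genes, a site covered at least part of an annotated miRNA hairpin on the same strand. The mature miRNAs of 3 of these genes are printed because they show a pair of sites that stayed in place and pairs that did not. Letters are from RefSeq (GRCm38.p6, the assembly also called mm10), 5′ to 3′, and capitals mark the seed, bases 2 to 8.
mmu-miR-206-3p: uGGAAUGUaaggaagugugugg
mmu-miR-21a-5p: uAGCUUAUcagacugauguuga
mmu-miR-21a-3p: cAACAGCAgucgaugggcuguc
mmu-miR-7036b-5p: aCGCGGGGuucucuguggaagc
The site listed under Mir133b, a muscle miRNA, lay at chr1:20679055-20679255 on the plus strand in both lists, with folds of 62.9 and 67.2. This 201 bp interval lay outside the RefSeq span of Mir133b (20682769 to 20682887). It began at the first base of miR-206-3p and covered 28 of the 73 bp of the Mir206 hairpin, so the gene symbol in the lists and the place of the site differ. miR-206 is known as a skeletal muscle miRNA.

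miR-21 is a miRNA well known from cardiac fibroblasts, and its hairpin lies at the end of Vmp1, an autophagy gene, on the same strand. The wild-type site of Vmp1 was 667 bp long, at 99.7% of the gene span, and covered all 92 bp of the Mir21a hairpin. The knockout site, 86 bp long, lay 81261 bp away in the first part of the gene and covered none of it. The folds were 9.40 and 4.17, and the scores 112 and 141. In Add1, which encodes the actin-capping protein adducin, the wild-type site covered all 63 bp of the Mir7036b hairpin and the knockout site none. In Kctd12, Klhdc7a and P2rx7, both sites covered most or all of a hairpin (Mir5130, Mir2139 and Mir8115). Site lists of this kind do not tell whether the methylated molecule was the host transcript or a miRNA precursor.

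The main result concerned whether the 2 sites of a gene overlapped. In 2160 of the 2260 genes they shared at least 1 bp on the same strand (95.6%, 94.6 to 96.4), and in 100 they did not. The background was lower: 77.2% of all wild-type sites overlapped a knockout site and 80.4% of all knockout sites overlapped a wild-type site. The counting rule favours overlap, because it leaves out every gene without a site in the other list. Within genes that are present in both lists, an overlapping partner in the same gene was found for 85.3% of wild-type and 87.3% of knockout sites. Leaving out the single-site genes gave 82.2% and 84.8%. Genes with 2 sites in each list are the closest match, since they too have equal numbers on both sides. There, 1392 of 1466 wild-type sites overlapped (interval 93.7% to 96.0%), so the share in single-site genes was near that of genes with equal site numbers.

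Exact agreement of both ends was a stricter measure. The start and the end were the same to the base in 1080 genes (47.8%, 45.7 to 49.9), beside 54.6% of all wild-type and 56.8% of all knockout sites and 64.1% and 66.1% of those in the other genes of both lists. In genes with 2, 3, 4 and 5 sites in each list, the share of wild-type sites with identical ends was 67.8%, 73.5%, 76.9% and 80.6%. The median wild-type length was 872 bp with 1 site per gene and 449, 298, 249 and 171 bp in those classes. Within the single-site genes the share also moved with length. In 5 equal groups by the length of the longer site, from the shortest to the longest, 83.4%, 62.4%, 42.0%, 25.2% and 25.9% of pairs were identical. Sites shared at least 50% of both lengths in 93.6% of the single-site genes.

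Of the 1080 genes whose sites overlapped with different ends, 749 shared the 5′ edge only (69.4%, 66.5 to 72.1). The 3′ edge only was shared by 136 (12.6%, 10.7 to 14.7), and neither edge by 195 (18.1%). Among overlapping pairs of the other genes whose ends differed, 70.4% shared the 5′ edge and 22.7% the 3′ edge, so the shared 5′ edge was not particular to single-site genes. Where only the 5′ edge was shared, the knockout site reached farther 3′ in 398 genes and the wild-type site in 351, with a median distance of 104 bp between the 3′ edges (quartiles 34 and 267). The direction was thus divided nearly evenly between the genotypes. The wild-type site wholly contained the knockout site in 461 of the 1080 genes, and the reverse held in 521.

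A small overlap can hide 2 sites that hardly meet. In 45 genes the shared stretch was under 50% of the longer site, and in 2 genes it was 1 bp. One was Rbpj, the DNA-binding partner of Notch in the nucleus, whose sites of 239 and 272 bp met end to end at 1 base. The other was Celf3, an RNA-binding splicing factor, whose wild-type site was only 1 bp long against 399 bp in the knockout list.

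The place in the gene was nearly the same in both lists. The span from the annotated start to the annotated end of a gene was divided into 5 equal parts, and a site was placed by its midpoint. Of 2192 wild-type sites that could be placed, 41.5% lay in the last part (39.4 to 43.6) and 27.2% in the first (25.4 to 29.2). In the knockout list 41.4% of 2194 lay in the last part and 27.4% in the first. The 3 middle parts held 8.21%, 11.4% and 11.7% of wild-type and 7.93%, 11.3% and 11.9% of knockout sites. In all other genes the last part held 34.2% of wild-type sites (33.2 to 35.2) and, for the knockout, 33.0% (32.0 to 34.1), and these intervals did not reach those of the single-site genes. The first part held 2114 of their 8442 wild-type sites (interval 24.1% to 26.0%) and 25.8% of their knockout sites (24.8 to 26.7), near the shares in single-site genes. The fourth part held 17.1% and 17.7%. Measured as distance of the midpoint, the order of the ends turned. Of knockout midpoints, 20.1% lay within 1 kb of the end of the gene and 24.7% within 1 kb of its start. The 3′ edge, however, lay within 1 kb of the gene end for 31.5% of wild-type and 31.3% of knockout sites. The distance of the 5′ edge from the start was not counted in this way. Spans include introns. No exon annotation was at hand, so sites were not assigned to exons, coding sequence or untranslated regions.

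**Figure D1:**
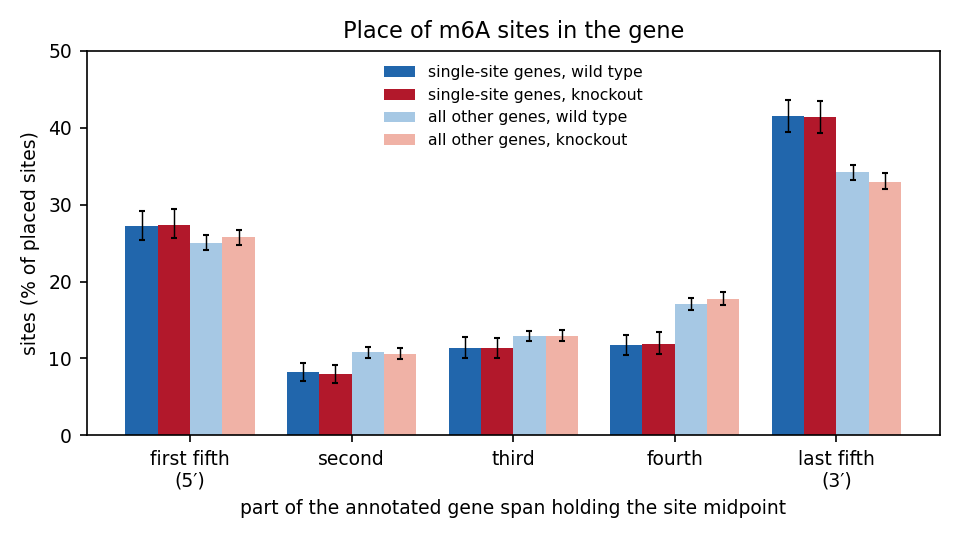
Share of placed sites, in percent, in each of 5 equal parts of the annotated gene span, for single-site genes and for all other genes in each list. Bars are shares and lines are 95% binomial intervals. The last part holds 41.5% and 41.4% of the sites of single-site genes against 34.2% and 33.0% of the others.

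Both sites of a gene lay in the same part in 2071 of 2191 genes (94.5%, 93.5 to 95.4). Among genes without overlap the count was 33 of 99 (33.3%). Among the genes with sites in different parts, 54 of 120 had sites that overlapped across a border between parts.

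**Figure D2:**
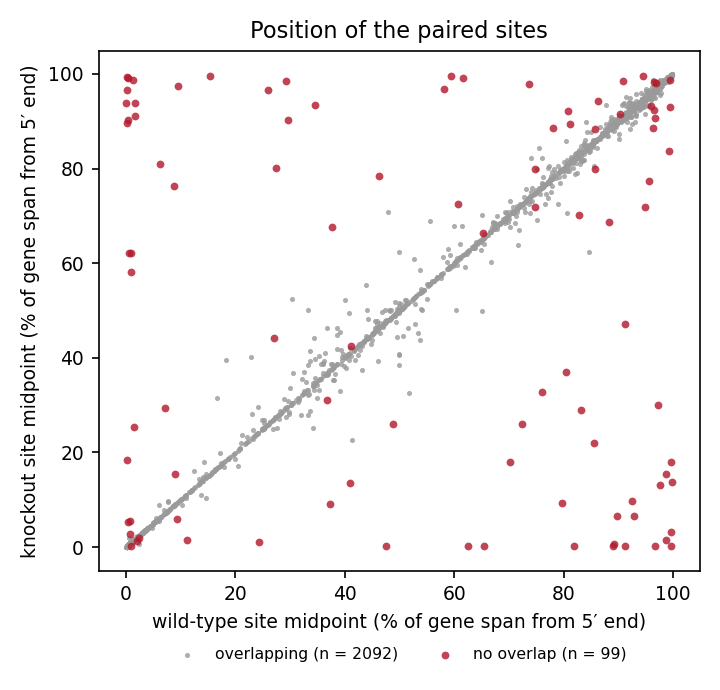
Midpoint of the knockout site against that of the wild-type site, in percent of the gene span from the 5′ end, with 1 point per gene. The overlapping pairs follow the diagonal, and the pairs without overlap are scattered over the whole square, including corners where 1 site is at each end of the gene.

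The ends of the sites behaved differently at the 2 ends of genes. With both sites in the first part, 469 of 577 pairs had identical ends (81.3%, 77.9 to 84.4), and with both in the last part 267 of 877 (30.4%, 27.4 to 33.6). Sites in the first part were shorter, with a median of 338 bp in each list, against 1129 bp and 1128 bp in the last part. The contrast was also present among pairs of like length. Where the longer site was over 300 and up to 600 bp, 84.2% of first-part pairs (77.8 to 89.4) and 46.7% of last-part pairs (36.3 to 57.4) were identical. Above 1200 bp these shares were 72.9% of 59 pairs and 19.1% of 450 pairs. Up to 300 bp, however, the order turned, with 89.7% of 242 first-part pairs and 97.9% of 48 last-part pairs. The edge that was kept also differed. Among non-identical pairs with the wild-type site in the last part, 77.4% shared the 5′ edge and 5.16% the 3′ edge, whereas in the first part 38.0% shared the 5′ edge and 55.0% the 3′ edge.

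Some sites began exactly at an annotated start of their gene. Of 1739 genes with a start in the RefSeq promoter table, the 5′ edge of the wild-type site lay exactly on a start in 299 (17.2%) and that of the knockout site in 305 (17.5%). In 395 genes (22.7%) both sites covered the first 50 bases after a start. The motif GGAC followed by any base other than G, a form of the sequence that the writer complex prefers, was searched in those 50 bases on both strands. It occurred in 51 of the 395 on the sense strand (12.9%, 9.77 to 16.6) and in 53 on the antisense strand (13.4%). Over all 32851 annotated starts the shares were 15.4% and 14.4%, so the genes with a site at the start were near the background. For 3 genes with the motif, 30 bases are printed from RefSeq (GRCm38.p6), on the strand of the gene, to show where it stood, with the first match in capitals.
Prkaca, chr8:83972978-83973007, plus strand: GGACAgaggacttgggctgaggctcccccg
Cpeb4, chr11:31870940-31870969, plus strand: GGACTcagccgcggctgcgggacctgggca
Jun, chr4:95052185-95052214, minus strand: caggctggataaGGACTcagagttgcactg
In Prkaca and Cpeb4 the first match began at the first base of the start, and in Jun at base 21. The stretches of Prkaca and Cpeb4 each hold a further match, left in lower case. A match of these letters does not show that the adenosine was methylated.

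In a small set of compact genes, the sites filled nearly the whole gene. Both sites covered at least 95% of the gene span in 48 of 2219 genes (2.16%), of which 39 were protein coding and 7 were pseudogenes. Their spans had a median of 1467 bp. They included Junb (1840 bp) and Jun (3187 bp), subunits of the AP-1 transcription factor, and Cebpb (1518 bp), a bZIP transcription factor. Others were Ier2 (1522 bp), an immediate early gene, Kcna5 (3005 bp), a potassium channel, and Cldn5 (1416 bp), a tight junction protein of endothelium. In Junb, Cebpb, Ier2 and Kcna5 the site equalled the span to the base in both lists. For such genes the place within the span carries no information.

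Length was the next measure. Wild-type sites of single-site genes had a median deposited length of 872 bp (quartiles 380 and 1573) and knockout sites one of 866 bp (372 and 1562). Over all sites the medians were 394 and 364 bp, and over the sites of all other genes 295 and 275 bp. Sites of 2000 bp or more made up 16.5% of wild-type and 15.9% of knockout sites in single-site genes, beside 9.28% and 8.44% of all sites. Sites of 100 bp or less made up 2.79% and 2.96%, beside 9.91% and 10.3%. The length is that of the genomic interval. The longest site was in Map1a, which encodes a microtubule-associated protein, at 8104 bp with identical ends in both lists. Zfp292, a zinc finger gene, had sites of 7556 and 7429 bp, and Zbtb38, a methyl-CpG-binding zinc finger gene, of 6254 and 6249 bp. The shortest pairs were in Snx24 (23 and 22 bp), 1500009L16Rik (36 bp in each) and Gm10974 (40 bp in each).

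The 2 lengths of a gene were close. Across the 2260 genes, Spearman's rho between wild-type and knockout length was 0.94, given as a description because the overlapping sites share most of their bases. Among overlapping pairs, 1082 had the same length, the wild-type site was longer in 514 and the knockout site in 564. In pairs with differing ends, the median ratio of the longer to the shorter site was 1.09 (quartiles 1.03 and 1.24). The longer site was at least 1.5 times the shorter in 136 of 2160 overlapping pairs (6.30%, 5.31 to 7.40), beside 3.77% of all 8294 overlapping pairs of the lists. It was the wild-type site in 77 of them (3.56%, beside 2.04% of all pairs) and the knockout site in 59 (2.73%, beside 1.74%). The intervals of these directions, 2.82 to 4.44 and 2.09 to 3.51, overlapped.

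**Figure D3:**
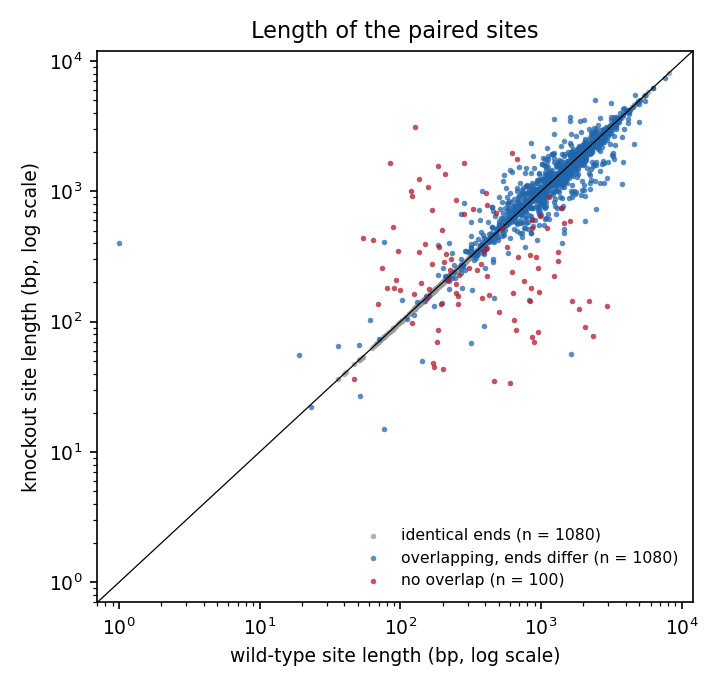
Length of the knockout site against that of the wild-type site in bp, both on log scales, with 1 point per gene and the line of equality. Identical pairs lie on the line and reach 8104 bp. Most overlapping pairs with differing ends lie near it, and 77 of the 100 pairs without overlap differ by 1.5 times or more.

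The largest length differences, among pairs whose scores were both 100 or more, went in both directions. Gm22, listed by RefSeq as Zfp469, had a wild-type site of 1621 bp and a knockout site of 56 bp that shared its 5′ edge. Gsg1l, a subunit of AMPA receptors, had 2462 and 730 bp, again with the 5′ edge in common. Fxyd5, a regulator of the sodium pump, had 392 and 92 bp at the start of the gene, and Abcd4, a lysosomal cobalamin transporter, 77 and 15 bp. Sites longer in the knockout list included Nap1l3, a nucleosome assembly protein (850 and 2341 bp), and Glrx3, a glutaredoxin of iron-sulphur metabolism (271 and 670 bp). Wdr35, a component of the ciliary transport machinery, had 549 and 1332 bp. Gm14436 (3778 and 1149 bp) belongs to a family of near-identical zinc finger genes, and Gm4799 (76 and 409 bp) is a pseudogene, so their reads may be shared with copies elsewhere.

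Overlap moved with the strength of the sites. The deposited fold is the ratio of IP to input at a site, and the score is the caller's p as its log10 multiplied by minus 10, so that a high score is a small p. Median folds were 10.3 (wild type) and 8.38 (knockout), near the medians of all sites (9.35 and 7.96), and median scores were 314 and 284. The false discovery rate that the authors' caller gave was 100% for 83.4% of the wild-type and all of the knockout sites of single-site genes. It was still 83.33% for the wild-type sites of Tia1, Map1a and Adrb1, each with a score of 3100. The score and not this rate was therefore used to rank the sites. The lists were called separately, so the difference between these medians is no measure of methylation. Genes were ranked by the lower of their 2 scores and divided into 10 groups of 226. Overlap was 81.9% in the weakest group (76.2 to 86.7) and 100% in the strongest (98.4 to 100). With a lower score of 100 or more, 1624 of 1642 pairs overlapped (98.9%), and below it 536 of 618 (86.7%). Identical ends made up 42.5% of the weakest group, 35.8% of the next and 60.2% of the strongest. Length moved with the score as well. Median lengths were 516.5 bp (wild type) and 463.5 bp (knockout) in the weakest group and 1287 and 1248 bp in the strongest. In the 5 groups by length, overlap was 93.4% in the shortest and 98.7% in the longest. Score and length were not examined apart from each other.

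**Figure D4:**
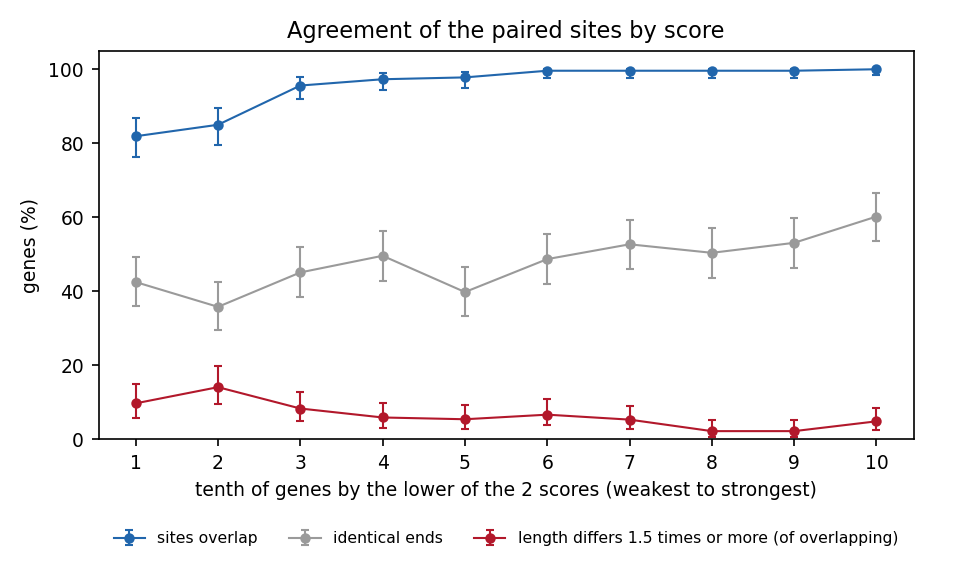
Share of genes, in percent, whose sites overlap, have identical ends, or differ in length by 1.5 times or more, in 10 groups of genes ordered by the lower score. The share that differs in length is taken of overlapping pairs only, the other shares of all genes in a group. Points are shares and lines are 95% binomial intervals. Overlap goes from 81.9% in the weakest group to 100% in the strongest.

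The pairs with identical ends and the largest folds lay in 5 genes. Gm4076 had folds of 1286 and 1099, at a 516 bp interval on chromosome 13 from 85126999 to 85127514. Gm10801, on chromosome 2, had 125 and 109. Neither symbol was matched to a RefSeq gene, and how their reads were assigned is not known. Tia1, which encodes a stress granule protein that binds RNA, had a 304 bp site at the 5′ end of the gene with folds of 206 and 269. Uros, an enzyme of haem synthesis, had 372 bp near the 5′ end with folds of 94.9 and 115. Gpatch4, a nucleolar protein, had 1037 bp that ended at the last base of the gene, with folds of 96.2 and 86.3.

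Other strong sites are given by place. In the first part, Fam32a had 142 bp and Nom1, a nucleolar protein, 980 bp, each with identical ends, whereas Brd9, a subunit of a SWI/SNF remodelling complex, had 360 and 718 bp from a common 5′ edge. In the last part, 0610011F06Rik, now Mettl26, had 483 and 509 bp. Map2k2, the kinase MEK2, had 1078 and 1013 bp. Tmem38b, the TRIC-B cation channel of the endoplasmic reticulum, had 1232 and 1981 bp, and Pelp1, a nuclear receptor coregulator, had 1431 bp in each. In the middle, Smarcd3, a heart-enriched subunit of the same class of remodelling complex, had an identical 232 bp site with folds of 103 and 76.6. R3hcc1 (745 bp) and Las1l (650 bp), a ribosome biogenesis factor, were also identical.

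Sites without overlap were weak and far apart. Over the 100 genes the median scores were 89.1 (wild type) and 81.0 (knockout), and the lower score was under 100 in 82. The gap between the sites had a median of 8457 bp (quartiles 1506 and 34770), from 26 bp in Eif4enif1 to 479557 bp in Dock2. It was 1 kb or less in 20 genes and over 10 kb in 47. The wild-type site lay nearer the 3′ end in 50 genes and the knockout site in the other 50, so there was no direction. The genes were longer, with a median span of 39.5 kb against 21.2 kb where the sites overlapped, and 77 of the 100 pairs differed in length by 1.5 times or more. In 1 gene, Fam86, the wild-type site overlapped a knockout site listed under another symbol, Eef2kmt. RefSeq lists Fam86 as Eef2kmt, so the 2 symbols name 1 gene, which symbol counting left among those without overlap. A site missing from a list does not show that the RNA was unmethylated there.

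In 18 genes both scores were 100 or more and the sites still did not overlap. The highest lower score was that of Add1, where a 350 bp wild-type site and a 250 bp knockout site lay 128 bp apart at the start of the gene, with folds of 24.4 and 26.6. The 2 sites were assigned to different transcripts. Myo19, a mitochondrial myosin, had sites 269 bp apart, and Slc20a1, a sodium-phosphate cotransporter, 317 bp apart. Tsr3, a ribosomal RNA modifying enzyme, had sites at 34.6% and 93.5% of a short gene. Those of Rbm8a, a core protein of the exon junction complex, lay at 48.9% and 26.0%, and those of U2af2, a splicing factor of the 3′ splice site, at 7.1% and 29.3%. The sites of Ammecr1l were 421 bp apart.

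Of these strong pairs in different parts of the gene, the 5 with the largest gaps in bp are described first. Their sites lay in the opposite ends of the gene or nearly so. Abcd2, a peroxisomal fatty acid transporter, had a 1138 bp wild-type site at 1.7% and a 907 bp knockout site at 93.8% of the span, with folds of 12.5 and 8.21. Gja5, the atrial and conduction-system gap junction protein connexin 40, had an 84 bp wild-type site at 0.2% and a 1659 bp knockout site at 89.6%, with scores of 115 and 148. Apbb1ip, an integrin-activating adaptor, went from 15.4% to 99.6%, and Dennd6a, a regulator of Rab proteins, from 92.5% to 9.7%. Vmp1, described above, was the fifth. Tmem189, with a smaller gap of 17190 bp, also had sites at opposite ends, at 0.4% (wild type) and 99.1% (knockout). Both directions thus occurred among the strong pairs.

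**Figure D5:**
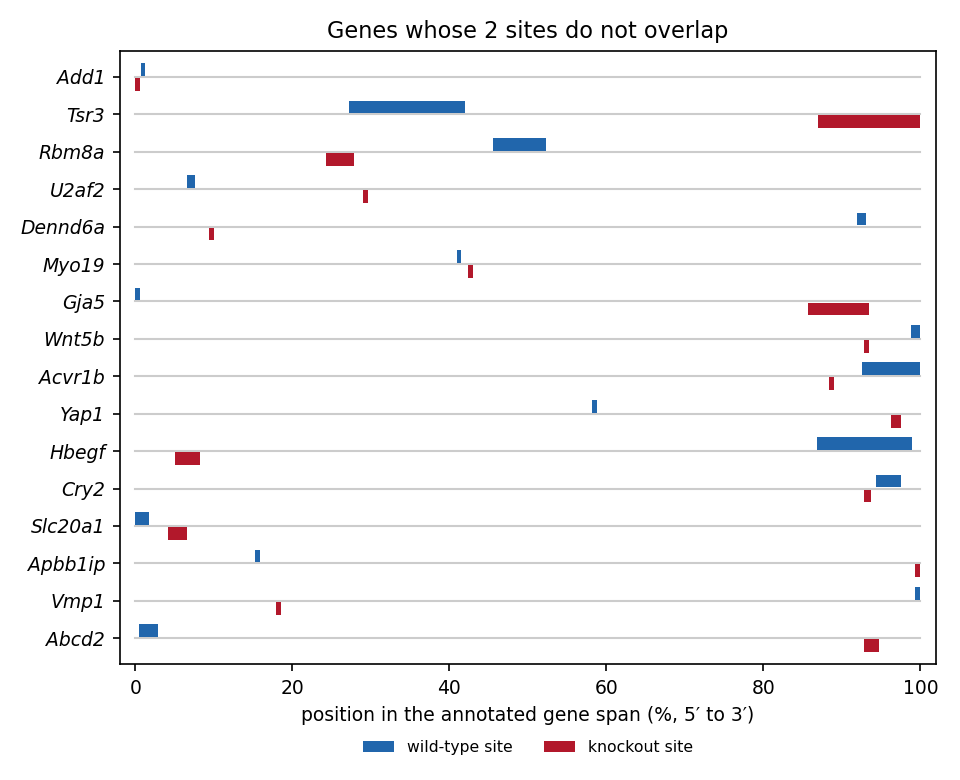
Wild-type and knockout sites of 16 genes whose sites do not overlap, drawn along the annotated gene span in percent from the 5′ to the 3′ end. Bars are sites, widened to a visible minimum where very short. The grey line is the gene span. Abcd2, Gja5, Dennd6a and Vmp1 have their 2 sites far apart.

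In the gene lists that follow, totals include genes without a site in both lists, which the counting rule leaves out. Of 28 genes of the m6A machinery itself, 15 had a site in both lists and 6 were single-site genes, beside 45.6% of all genes in both lists. All 6 pairs overlapped, beside 95.6% of all single-site genes. Rbm15 and Rbm15b, adaptors that bring the writer complex to RNA, had sites of 3195 and 3199 bp and of 3016 bp in each list. Ythdf2, a cytoplasmic reader that promotes decay, had an identical site of 1584 bp. Of 36 heart transcription factors, 24 had a site in both lists and 5 were single-site genes, and all 5 pairs overlapped. Irx3 had an identical site of 1140 bp with folds of 63.0 and 43.9. Myocd, a coactivator of serum response factor, had one of 293 bp and Tbx20 one of 585 bp at the gene start.

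Of 38 sarcomere and Z-disc genes, 16 had a site in both lists and 4 were single-site genes. All 4 pairs had identical ends, beside 47.8% of all single-site genes. Their median length was 298.5 bp in each list. Over all single-site genes whose longer site was 23 to 338 bp, 83.4% were identical. Tnnt2, cardiac troponin T, had a 242 bp site at 99.2% of the span with folds of 37.5 and 34.2. Tcap, the titin cap protein, had 802 bp and Tpm2, a tropomyosin, 355 bp at the start of the gene. Of 48 calcium handling and ion channel genes, 27 had a site in both lists and 9 were single-site genes, of which 8 overlapped, with Gja5 the exception. Hrc, a calcium-binding protein of the sarcoplasmic reticulum, had an identical 2106 bp site and Kcnj11, a subunit of the ATP-sensitive potassium channel, one of 3115 bp. As a check on the tissue, 3 of 10 cardiomyocyte markers, Tnnt2, Ryr2 and Ttn, had a site in either list, and Myh6, Myh7, Tnni3, Actc1, Pln, Nppa and Myl2 had none. Markers with a site numbered 5 of 7 for fibroblasts, 4 of 7 for endothelium, 3 of 6 for mural cells and 3 of 6 for macrophages. Markers without a site may still be expressed, so these counts do not settle the cell types present.

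Most signalling genes overlapped. All 10 single-site genes of 35 in adrenergic and cAMP signalling overlapped. Adrb1, the main cardiac beta receptor, had an identical site of 2491 bp, and Prkaca and Prkacb, catalytic subunits of protein kinase A, had identical sites of 255 and 323 bp at the gene start. All 15 of 42 in insulin, glucose and FOXO control overlapped, 14 of them with identical ends and 9 with both sites in the first part. Over all single-site genes, 47.8% were identical, and both sites lay in the first part in 577 of 2191 and in the last in 877 of 2191. With both sites in the first part, 81.3% were identical. The 15 genes included Irs1, the insulin receptor substrate (4663 bp), Igfbp5 (4577 bp) and Foxo4 (746 bp). In Wnt and Notch signalling, 11 of 12 overlapped and 1 of the 12 was identical, beside 47.8% of all single-site genes. Their sites were long, with medians of 1631.5 bp (wild type) and 1589 bp (knockout). Over all single-site genes whose longer site was 1161 to 1921 bp, 25.2% were identical. The sites of Wnt5b, a Wnt ligand, did not overlap and were 1326 and 293 bp long. Fzd8, a Wnt receptor, had 2997 and 2875 bp, and Znrf3, a ligase that removes Wnt receptors, 2051 and 2075 bp.

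In TGF-beta and BMP signalling 7 of 8 overlapped. The ligands Bmp6 (872 bp) and Tgfb3 (1461 bp) had identical sites in the first part, and Acvr2a, a type II receptor, had 749 and 847 bp in the last. The exception was Acvr1b, a type I receptor, with 2942 and 131 bp and scores of 83.6 and 85.5. Of 3 Hippo genes, Ajuba and Stk3 had identical sites. Yap1, the coactivator at the end of the Hippo pathway, had a 120 bp wild-type site at 58.2% and a 922 bp knockout site at 96.9%, with folds of 3.77 and 5.14 and scores of 81.6 and 1147, each in its own list.

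Short-lived transcripts were among the larger groups. Of 54 immediate early and short-lived genes, 18 were single-site genes and 17 overlapped, with 9 identical. Ier5l had 1559 bp in each list and Jund 2416 and 2226 bp. The exception was Hbegf, a growth factor of the EGF family, with a 1316 bp wild-type site at 92.8% and a 345 bp knockout site at 6.6% and scores of 101 and 59.8. Of 24 clock genes, 6 were single-site genes, and 5 overlapped. Bhlhe40, a clock repressor, had 2306 and 1999 bp, and Nr1d2, which encodes REV-ERB beta, 958 bp in each. The sites of Cry2, a core repressor, did not overlap (957 and 256 bp, scores of 323 and 62.9).

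Genes of metabolism and ubiquitin came next. All 7 single-site genes among 43 lipid and mitochondrial regulators overlapped, among them Ucp3, an uncoupling protein of muscle mitochondria (1439 bp), Idh2 (231 bp) and Nrf1 (1612 and 1535 bp). Of 71 deubiquitinases, 33 had a site in both lists and 8 were single-site genes. All 8 overlapped, 6 of them with both sites in the last part, beside 877 of 2191 over all single-site genes. Usp42 had an identical site of 2070 bp and Zranb1 one of 852 bp, and Otud1 had 1650 and 1964 bp. All 19 of 71 E3 ligases and cullin adaptors overlapped, including Mdm2, the ligase of p53 (1911 and 1907 bp), and Spop (1695 and 1714 bp). In the p53, cell cycle and DNA damage list all 7 of 58 overlapped, with Nbn, a DNA break sensor (442 bp), and Wee1, a mitotic inhibitor kinase (867 bp), identical. Of 54 solute carriers 9 were single-site genes, and 8 overlapped. Slc6a8, the creatine transporter, had an identical site of 918 bp, and Slc20a1 was the exception.

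Of 86 chromatin regulators, 62 had a site in both lists and 4 were single-site genes, beside 45.6% of all genes in both lists, which describes the choice of genes. All 4 pairs were identical, beside 47.8% of all single-site genes and 62.4% of those whose longer site was 338 to 726 bp. The median length of the 4 was 413 bp in each list. Among them were Kdm6b, a histone demethylase (2168 bp), and Dot1l, a histone methyltransferase (578 bp). RNA-binding and splicing genes gave 11 of 78, all overlapping and 10 identical. In 9 of them both sites lay in the first part, beside 577 of 2191 over all single-site genes. Ends were identical in 47.8% of all single-site genes and in 81.3% of those with both sites in the first part. Cpeb4, a regulator of polyadenylation, had 2473 bp and Hnrnpu 845 bp.

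Genes of matrix, vessels and immunity were the last groups. All 14 of 72 matrix and integrin genes overlapped, including Fbn1, fibrillin-1 (1382 bp), Loxl1, a matrix cross-linking enzyme (1527 bp), and Itgb5 (540 and 682 bp). All 18 of 53 endothelial and mural genes overlapped, 10 of them with both sites in the last part, again beside 877 of 2191. Pdgfrb, the receptor of pericytes, had an identical site of 1847 bp, and the neuropilins Nrp1 and Nrp2 had 2951 bp and 993 bp. All 13 of 63 innate immune and macrophage genes overlapped, including Mrc1, the mannose receptor (402 bp), and Irf2bp2, a transcriptional corepressor (2011 and 3533 bp). All 5 of 48 autophagy and lysosome genes overlapped, including Rb1cc1, a subunit of the autophagy initiation complex (1892 bp), and Mitf (1463 and 2451 bp). With a background of 95.6% over all single-site genes, full overlap in groups of this size sets no group apart.

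Genes just outside the counting rule had 1 site in one list and 2 in the other. There were 319 with 1 wild-type and 2 knockout sites and 400 with 2 wild-type and 1 knockout site. The strongest were Aebp2, Hand2 and Ap3d1 in the first class and Ahnak, Ptprg and Magi1 in the second. In Hand2, a heart transcription factor, the single wild-type site of 1479 bp matched a knockout site of the same length, and the additional knockout site had a score of 1142. In Ptprg, a receptor phosphatase, the additional wild-type site had a score of 109. The single site overlapped 1 of the 2 sites in 297 of 319 and in 379 of 400 genes. In those 297 genes the unmatched knockout site had a median score of 91.7, against 283 for the matched one. In the 379 genes the unmatched wild-type site had a median of 94.7, against 368, so the score in Hand2 was far above the usual.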

How the data were processed

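m6A sites were listed for 1 wild-type and 1 Abro1 knockout heart sample, each from 1 input and 1 immunoprecipitate. Per the submitters' processing notes, cutadapt 1.9.3, HISAT2 2.0.4 and the mm10 genome were used. In the deposited tables site names begin with MACS, a peak caller; its version, like its settings, was not given in the sources used here. The library kit is uncertain: the extraction protocol names a directional NEBNext kit, the design text a stranded KAPA kit.

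Per the file headers, the deposited fold is a linear ratio of immunoprecipitate to input per site, made by the authors' caller. Per the file headers, the authors' score is the caller's p on a log10 scale, multiplied by minus 10. The false discovery rate was deposited as a percent value per site, as its range up to 100 shows. The authors' length is the genomic interval in bp, which matched start and end in every row. Fold and score describe a site in its own list and were not compared between lists as a change. Genes were ranked or filtered by the lower of their 2 scores or folds, which treats the scales of the lists as alike.

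Symbols were counted in each list. Overlap meant at least 1 bp on the same strand. Of 2260 genes, 2220 were matched to a RefSeq table (GRCm38.p6), 122 of them under another symbol, and sites were placed by midpoint in 5 equal parts of the gene span. Coordinates are 1-based. Python 3.11.15, pandas 2.3.3, numpy 2.4.6, scipy 1.17.1 and matplotlib 3.10.9 were used, and the counting was tested on simulated lists. The lists give no read counts, so no depth or detection limit could be set.

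The genes, gene lists and comparisons were chosen with earlier results of these data known. Named genes followed a rule, and 2 genes it takes are not reported here. It took the 10 pairs without overlap with the highest lower score. Among pairs in different parts with both scores of 100 or more, it took the 5 with the largest gap in bp. It took the 5 identical pairs with the largest lower fold, and the 5 overlapping pairs per direction with the largest length ratio among scores of 100 or more. It also took the 3 longest and 3 shortest pairs, the 5 pairs per place with the highest lower score, the 3 such per gene list and the list members without overlap, and the 3 strongest genes just outside the counting rule in each direction. Ties in the lower score were broken by the larger lower fold. The pairs named per place all had a lower score of 3100, so the fold decided among them. Rbpj and Celf3, the miRNA hosts, the genes with motifs and those filling their span, Eif4enif1, Dock2 and Fam86 were named after their values were seen.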

Additional observations from a re-analysis of the deposited data

How the results depend on the processing

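Of 65 alternative values, 49 lay within the main value's interval or, for the number of genes (2070 to 2251 against 2260), within 1.5 times of it, and 16 did not. Some of the 49 could not differ. Allowing either strand changed nothing because both sites of every gene lay on the same strand. Length taken as end minus start equalled the deposited length in every row. With sites of score 100 or more in each list, overlap was 97.2%, identical ends 51.1%, median lengths 967 bp (wild type) and 964.5 bp (knockout), and length ratios of 1.5 or more 4.87%. With the same transcript in both lists, overlap was 97.4% and identical ends 50.1%. Requiring 50% of both sites gave an overlap of 93.6%, a tolerance of 10 bp gave identical ends of 52.5%, and a ratio of 2 gave 1.94%. Placed by the 3′ edge, 49.5% of wild-type and 49.8% of knockout sites lay in the last part. Within 1 kb of the gene end lay 20% and 20.1% of midpoints, and within 1 kb of the start 25.1% and 24.7%. By midpoint distance the order of the ends thus turned, but the 3′ edge lay within 1 kb of the gene end for 31.5% and 31.3% of sites. No paired analysis was possible because each genotype has 1 pair of libraries, and leaving out a library was not possible for the same reason. The comparison of identical ends by length and place, and the search of bases after annotated starts, were added after the data were seen. Depth is unknown, so a site missing from a list may be below detection.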
